A study of Mus musculus with 12 samples.

Results

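The heat shock proteins and their co-chaperones were followed by RNAseq in the livers of female C57BL/6J mice, aged 8 to 12 weeks and all wild type, 8 h into acute iron overload. Mice received an intraperitoneal injection of 300 mg/kg FeSO4, or 0.9% NaCl as the control, then 10 mg/kg dexamethasone (DEX), a synthetic ligand of the glucocorticoid receptor, or PBS after 6 h, and the liver was isolated 2 h later. This gave 4 groups of 3 mice, named NaCl/PBS, NaCl/DEX, FeSO4/PBS and FeSO4/DEX. The comparisons ask what iron did to the transcripts of the folding machinery, what DEX did to them in the absence of iron, and whether the response to DEX was still there after iron. Members were protein-coding genes whose mouse symbol begins with Hspa, Hspb, Hsph1, Hspd1, Hspe1, Hsp90, Dnaja, Dnajb, Dnajc or Bag, or names a subunit of the chaperonin CCT (Cct2 to Cct8, Tcp1), with at least 10 reads summed over the 12 libraries. In all, 88 genes carried such a symbol and 81 of them reached the limit, among 21627 protein-coding rows of the count table. They were thus chosen by symbol and by their summed reads, and the rule itself used no difference between groups. However, the rule was set with earlier results of these data known. A sum can also be reached through a single group, as it was for Hspa1l through its reads in FeSO4/DEX mice. Dnajc6 (10 reads), Hspa1l (19 reads) and Dnajb13 (21 reads) lay just inside the limit, Dnajb7 (5 reads) and Dnajb3 (1 read) lay just outside it, and Dnajb8, Dnajc5b, Dnajc5g, Hspb3 and Hspb9 had 0 reads. The filter on low counts, which asks for a minimum level in as many libraries as 1 group holds, so that a gene high in 1 group alone can pass, kept 76 of the 81 members among 13857 genes for testing. Hspa1a (76 reads), Hspb2 (33 reads), Hspa1l, Dnajb13 and Dnajc6 were not tested.

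Chaperones bind proteins that have not yet folded, or that have lost their fold, and keep them from aggregating. HSP70 proteins do so in cycles of ATP hydrolysis, in which J proteins (the Dnaj genes) deliver the client and start hydrolysis, while BAG proteins and HSP110 proteins release the nucleotide and the client. HSP90 finishes the maturation of receptors and kinases, the glucocorticoid receptor among them, CCT folds actin and tubulin inside a barrel of subunits, and small HSPs hold unfolded proteins without using ATP. In the cytosol, heat shock factor HSF1 induces many of these genes through the heat shock element, repeats of nGAAn in alternating orientation, whereas the ER has its own HSP70 (Hspa5, or BiP) and HSP90 (Hsp90b1, or GRP94), which the unfolded protein response induces through the ER stress element. Mitochondria import and fold their proteins with Hspa9 (mortalin) and with the chaperonin made of Hspd1 and Hspe1. By a list of textbook locations, 43 members belong to the cytosol, 8 to the ER lumen, 5 are J proteins of the ER membrane, 8 are mitochondrial, 3 are nuclear, and 13 have another or less certain place.

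The promoters that come back beside the results below are given here first, so that the element each carries can be seen. They were read from GRCm39 as the 250 bases upstream of the 5′ end of the canonical transcript in GENCODE vM39. Capitals mark a match, on either strand, to 2 units of the heat shock element (GAANNTTC or TTCNNGAA). The whole window is shown for Bag3 (chr7:128125033-128125282, plus strand) and Hspb8 (chr5:116561085-116561334, minus strand), the cytosolic pair with the strongest rises at high counts, and for Hspb1 (chr5:135916510-135916759, plus strand) and Hspa1b (chr17:35178215-35178464, minus strand), a member that rose and one that fell.
Bag3: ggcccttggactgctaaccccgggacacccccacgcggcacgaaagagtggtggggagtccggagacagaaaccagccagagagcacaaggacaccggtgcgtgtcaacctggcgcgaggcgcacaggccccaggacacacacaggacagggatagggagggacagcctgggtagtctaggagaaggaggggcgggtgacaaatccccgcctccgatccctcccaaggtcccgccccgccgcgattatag
Hspb8: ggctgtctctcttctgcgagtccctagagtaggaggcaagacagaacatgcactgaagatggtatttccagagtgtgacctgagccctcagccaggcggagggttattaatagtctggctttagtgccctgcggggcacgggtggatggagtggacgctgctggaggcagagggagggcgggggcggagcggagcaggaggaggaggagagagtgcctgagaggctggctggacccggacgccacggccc
Hspb1: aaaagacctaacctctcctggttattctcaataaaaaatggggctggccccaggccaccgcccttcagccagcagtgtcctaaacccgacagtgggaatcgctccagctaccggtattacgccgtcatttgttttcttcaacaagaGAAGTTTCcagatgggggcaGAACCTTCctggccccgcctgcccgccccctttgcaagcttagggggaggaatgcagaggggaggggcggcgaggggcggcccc
Hspa1b: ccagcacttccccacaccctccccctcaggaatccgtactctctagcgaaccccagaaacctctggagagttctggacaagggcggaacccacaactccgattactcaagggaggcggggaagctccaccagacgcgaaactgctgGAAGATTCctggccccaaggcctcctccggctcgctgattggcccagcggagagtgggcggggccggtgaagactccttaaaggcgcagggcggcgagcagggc
The windows of Bag3 and Hspb8 held no match, that of Hspb1 held 2, which begin at positions -104 and -84 from the start of the transcript, and that of Hspa1b held 1 at position -104. Of the members called higher after DEX in NaCl mice, Hspa1b, Dnaja1 and Hsph1 held a match. Hspa2, Dnaja3, Dnajc25, Bag2, Hspa8, Bag5 and Cct2 held none. Dnaja1 (chr4:40722333-40722362, plus strand) and Hsph1 (chr5:149559816-149559845, minus strand), which come back beside the DEX response, each held 1 match, shown within 30 bases.
Dnaja1: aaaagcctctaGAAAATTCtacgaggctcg
Hsph1: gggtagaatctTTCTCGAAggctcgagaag
Hspd1 and Hspe1 lie head to head on chromosome 1 and share 1 promoter, so that their stretches (Hspd1, chr1:55127214-55127243, minus strand, and Hspe1, chr1:55127210-55127239, plus strand) show the same bases read from both strands. Capitals here mark 3 units, that is GAA, TTC and GAA, or TTC, GAA and TTC, each 2 bases apart, in both of the overlapping matches.
Hspd1: gcggggccTTCCGGAAGGTTCTAGAAcgga
Hspe1: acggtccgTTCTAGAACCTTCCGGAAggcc
For Hspa5 (chr2:34662032-34662061, plus strand), Hsp90b1 (chr10:86541496-86541525, minus strand) and Dnajc3 (chr14:119175234-119175263, plus strand), genes of the ER lumen, capitals mark the ER stress element, which is CCAAT and CCACG with 9 bases between them.
Hspa5: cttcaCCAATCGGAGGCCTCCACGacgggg
Hsp90b1: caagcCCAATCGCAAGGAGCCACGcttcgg
Dnajc3: cacaaCCAATCAGCGCCAACCACGacccgg
Hsp90b1 held 2 ER stress elements and the stretch shows 1 of them. Over all 81 members, 12 promoters (14.8%) held 2 units of the heat shock element, against 10.9% of the promoters of 12674 tested protein-coding genes, and every match to 3 units also counts among these. Hspd1 and Hspe1 were the members with 3 units (0.347% of all promoters). The ER stress element stood in 0.118% of all promoters and in 3 of 8 members of the ER lumen, and in no other member. None of the 81 windows held the ER stress element II (ATTGG and CCACG with 1 base between them, 0.071% of all promoters), the CHOP-ATF element (TGATGNAAT, 0.442%) or the palindromic glucocorticoid response element (GNACA and TGTNC with 3 bases between them, 0.252%). These are matches of letters within 250 bases and say nothing about binding.

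The 12 libraries held between 16335651 and 23827340 reads in genes, and the members took 0.709% to 0.732% of the reads in NaCl/PBS mice, 0.767% to 0.807% in NaCl/DEX mice, 0.855% to 0.906% in FeSO4/PBS mice and 0.748% to 0.923% in FeSO4/DEX mice. The 8 hepatocyte markers were detected in each group, with sums of 1993450 to 2954610 normalized counts. After FeSO4, 6 of 6 Kupffer cell markers were lower (sums of 6353 to 7334 normalized counts in NaCl/PBS mice and 3325 to 3929 in FeSO4/PBS mice) and 5 of 5 tested neutrophil markers, of 7 listed, were higher (55.0 to 169 and 654 to 833 normalized counts). Their part in the values below was not tested, and in a whole liver fewer cells of a type and less RNA per cell cannot be told apart. Values per mouse are normalized counts, that is counts scaled by TMM to a library of mean size, LFC is the log2 fold change, and a member was called when the edgeR FDR was 0.05 or less. The p-values behind it measure the spread between these 3 mice per group.

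Iron overload shifted the chaperone transcripts in both directions, with the rises led by Bag3, Hspbap1 and Hspb8 and the falls by the J protein Dnajc28 and the HSP70 genes Hspa1b, Hspa12b and Hspa12a. Hspa1b and Hspa12b passed the filter on low counts only through NaCl mice, in which they were high, so their calls are no independent support. Of 76 tested members, 37 (48.7%) were called higher and 21 (27.6%) lower in FeSO4/PBS mice than in NaCl/PBS mice, while 27.2% of all genes tested were called higher and 27.3% lower. The higher share was thus above that of all genes, and the lower share was close to it. With an LFC beyond 1, 13 members were higher and 9 lower (all genes, 12.5% and 14.7%). The median LFC of the members was 0.28 and that of all genes -0.02. The values of the 3 treated mice lay above those of the 3 control mice for 38 members (50% against 29% of all genes) and below them for 19 (25% against 31%). These counts depend on the scaling: with library size alone, which moved the median of all genes from -0.02 to -0.34, 17 members were called higher and 30 lower, so that 36.2% instead of 63.8% of the calls were higher. Under that scaling the members' shares were 22.4% higher and 39.5% lower, against 16.5% and 42.1% of all genes, of whose calls 28.2% instead of 49.9% were higher.

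By location, the cytosol had 25 members called higher and 9 lower of 40 tested, with a median LFC of 0.41. The ER lumen had 2 higher and 3 lower of 8 (median 0.09), mitochondria had 3 higher and 1 lower of 8 (median 0.23), and the J proteins of the ER membrane had 0 higher and 2 lower of 5 (median -0.37). Beside the 27.2% higher and 27.3% lower of all genes tested, these were 62.5% and 22.5% in the cytosol. They were 25% and 37.5% in the ER lumen and 37.5% and 12.5% in mitochondria. Scaled by library size alone the medians were 0.09 for the cytosol, -0.23 for the ER lumen and -0.089 for mitochondria, so that the sign of the last 2 rests on the scaling. The cytosolic calls depend on it as well. Under library size alone 10 were higher and 12 lower, so that 45.5% instead of 73.5% were higher (all genes, 28.2% instead of 49.9%). Without FeSO4/PBS mouse 1 the medians were 0.33, 0.17 and 0.062, with mitochondria below the ER lumen. Without FeSO4/PBS mouse 2 that of the ER lumen was 0.021. No test of the difference between locations was run. By family, BAG had 5 higher and 1 lower of 6 (median 0.82), small HSPs 3 higher of 4 (1.97), CCT 7 higher of 8 (0.40), HSP70 5 higher and 4 lower of 9 (0.37), HSP110 1 higher and 1 lower of 3 (-0.23), and J proteins 11 higher and 15 lower of 38 (-0.11). Among the small HSPs counted as higher is Hspb7, which passed the filter on low counts only through FeSO4 mice. Among the HSP70 genes counted as lower are Hspa1b and Hspa12b, which passed it only through NaCl mice.

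**Figure D1:**
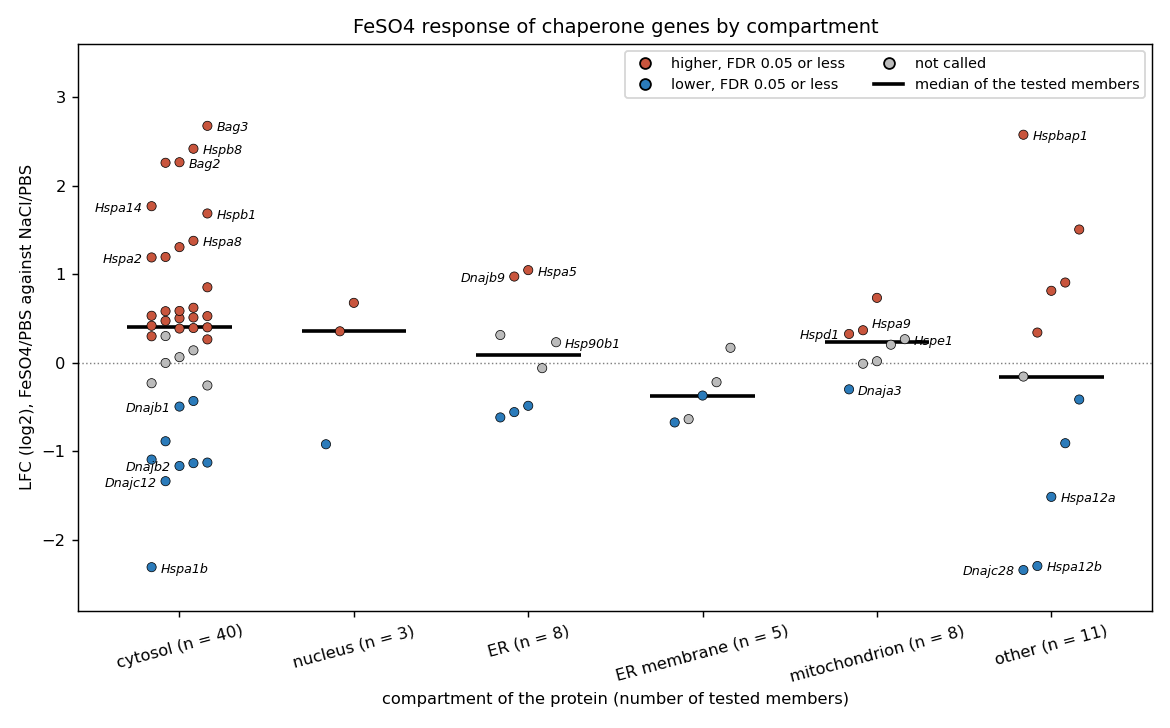
LFC of FeSO4/PBS against NaCl/PBS (log2 scale, vertical axis) of the 75 tested members with a listed location, in 6 columns, with points coloured by the edgeR call and a line at each median. The cytosolic points run from -2.31 (Hspa1b) to 2.68 (Bag3) with most above 0, while those of the ER lumen lie between -0.62 and 1.05 and those of mitochondria between -0.30 and 0.73.

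Bag3, the BAG protein that links HSP70 to small HSPs and to selective autophagy, had the highest LFC of all tested members. Its values were 294, 418 and 356 in NaCl/PBS mice and 2988, 1945 and 1882 in FeSO4/PBS mice. The groups were far apart, and FeSO4/PBS mouse 1 was the highest (LFC 2.68 ± 0.19 SE, edgeR FDR 1.2e-07). Hspb8, the small HSP that works in a complex with Bag3, went from 3083, 3293 and 2910 to 17645, 16881 and 15064. Its groups were again separate, with little spread in either (LFC 2.42 ± 0.12, edgeR FDR 7.8e-09). Per kilobase of transcript, the mean level of Hspb8 rose from 73.7 to 394 CPM per kb and that of Bag3 from 6.86 to 43.8, so that Hspb8 was the more abundant transcript of the pair in both groups. The promoters of both, printed above, held no match to the heat shock element within 250 bases.

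Hspb1 (HSP27), a small HSP of the cytosol with 2 matches in its promoter, was low in all groups, with 33.8, 110 and 88.9 in NaCl/PBS mice and 151, 409 and 180 in FeSO4/PBS mice. The groups did not overlap, although each had 1 mouse well away from the other 2 (LFC 1.69 ± 0.41, edgeR FDR 0.0034, and LFC 1.11 with FDR 0.024 without FeSO4/PBS mouse 2). Hspbap1, whose product binds Hspb1, went from 46.0, 35.5 and 35.5 to 156, 300 and 247 (LFC 2.58 ± 0.25, edgeR FDR 1.5e-06). Hspb7, best known from heart muscle, went from 2.88, 5.61 and 1.69 to 10.1, 21.4 and 17.9 and was called by a small margin (LFC 2.26 ± 0.81, edgeR FDR 0.029). It had 10, 21 and 14 reads in FeSO4/PBS mice and at most 8 in any NaCl mouse. Hspb7 thus passed the filter on low counts only through mice in which it was high, so its call is no independent support. Without NaCl/PBS mouse 1 or 3, or FeSO4/PBS mouse 2 or 3, its FDR was 0.087, 0.10, 0.088 and 0.063. Of 8 muscle markers, 3 were at 0 in all libraries and 1 of 3 tested was higher, with sums of 146 to 157 normalized counts in NaCl/PBS mice and 226 to 312 in FeSO4/PBS mice, and their part in the value of Hspb7 was not tested. The fourth tested small HSP, Hspb6, had an LFC of 0.06 (edgeR FDR 0.77).

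In the BAG family, Bag2, an inhibitor of the ubiquitin ligase CHIP, went from 30.9, 43.0 and 44.9 to 97.8, 306 and 165. All treated mice lay above all controls, with a wide spread among them (LFC 2.26 ± 0.35, edgeR FDR 1.1e-04). Bag5, a nucleotide exchange factor of HSP70, went from 267, 274 and 226 to 668, 568 and 661, with a narrow spread in both groups (LFC 1.31 ± 0.12, edgeR FDR 1.5e-06). Bag1 and Bag6 were called with LFCs of 0.30 and 0.34 (edgeR FDR 0.025 and 0.020). The call of Bag1 was lost without NaCl/PBS mouse 1 or 2 or FeSO4/PBS mouse 2 (FDR 0.10, 0.052 and 0.064), that of Bag6 without NaCl/PBS mouse 1 or FeSO4/PBS mouse 1 (FDR 0.080 and 0.076, LFC 0.22 in the latter), and both with library size alone (LFC -0.02 and 0.02). Bag4 was the member of the family that fell (LFC -1.13, edgeR FDR 8.1e-05). Bag1, Bag4, Bag6 and Hspb6 were added once their values were known, to complete their families.

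**Figure D2:**
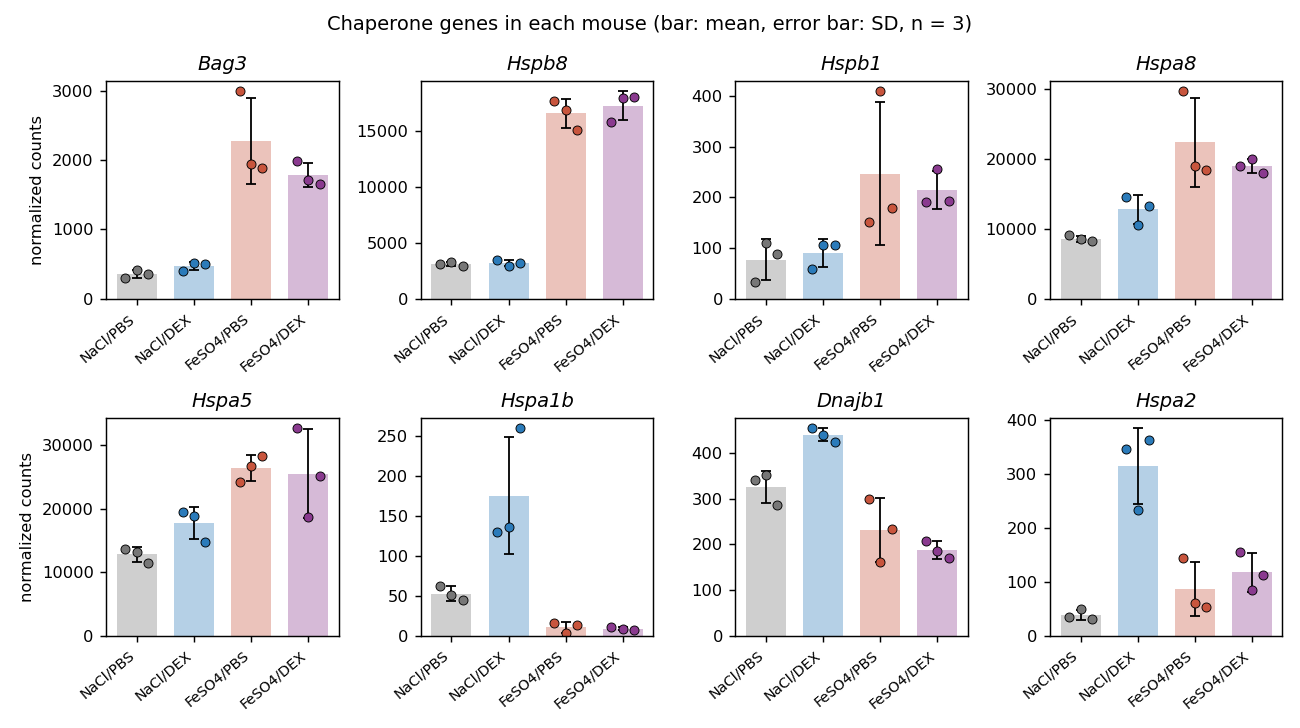
Normalized counts per mouse (vertical axis, starting at 0, a separate scale in each of 8 panels) of Bag3, Hspb8, Hspb1, Hspa8, Hspa5, Hspa1b, Dnajb1 and Hspa2 in the 4 groups, with bars for the mean, whiskers for the SD and points for the 3 mice. Hspb8 is at 15064 or above in each FeSO4 mouse and at 3446 or below in each NaCl mouse, whereas Hspa1b is at 130 or above in NaCl/DEX mice and at 16.1 or below in each FeSO4 mouse.

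Among the HSP70 genes, Hspa8, the constitutive HSP70 of the cytosol, was the most abundant per length. It went from 9110, 8528 and 8227 in NaCl/PBS mice to 29705, 19004 and 18474 in FeSO4/PBS mice. The groups did not overlap and FeSO4/PBS mouse 1 stood above the other 2 (LFC 1.38 ± 0.18, edgeR FDR 1.9e-05), and the mean level went from 182 to 472 CPM per kb. Hspa14, an HSP70 that works at the ribosome, went from 203, 230 and 210 to 894, 684 and 608 (LFC 1.77 ± 0.17, edgeR FDR 1.3e-06). Its gene span overlaps that of Msantd7 on the same strand, so reads may have been lost or assigned to the wrong one of the 2 genes. The inducible Hspa1b moved the other way. It had 62.6, 50.5 and 44.9 in NaCl/PBS mice and 16.1, 3.05 and 12.8 in FeSO4/PBS mice, with no overlap, and fell with an LFC of -2.31 ± 0.43 (edgeR FDR 5.1e-04). With 16, 3 and 10 reads in FeSO4/PBS mice and 11, 6 and 6 in FeSO4/DEX mice, Hspa1b passed the filter on low counts only through NaCl mice. Its call is thus no independent support. Its near-identical neighbour Hspa1a was too low to test, with 4.32, 1.87 and 0.846 in NaCl/PBS mice and 3.02, 8.14 and 6.38 in FeSO4/PBS mice. Reads that fit both genes are left out of the counts, so that both values are uncertain and may be understated.

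The divergent HSP70 genes Hspa12a and Hspa12b were lower after iron. Hspa12a went from 52.5, 45.8 and 54.2 to 16.1, 20.3 and 16.6 (LFC -1.52 ± 0.30, edgeR FDR 7.0e-04). Hspa12b, known from endothelial cells, went from 33.1, 15.9 and 27.9 to 1.01, 6.10 and 8.93 (LFC -2.30 ± 0.59, edgeR FDR 0.0047). Neither pair of groups overlapped. Hspa12b had 1, 6 and 7 reads in FeSO4/PBS mice and 9, 3 and 13 in FeSO4/DEX mice. It thus passed the filter on low counts only through NaCl mice, in which it was high, so its call is no independent support. Of 6 endothelial markers, 1 was higher and 3 were lower, with sums of 4596 to 5316 normalized counts in NaCl/PBS mice and 3863 to 4979 in FeSO4/PBS mice, and their part in the fall of Hspa12b was not tested.

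Both HSP90 genes of the cytosol rose. Hsp90aa1, the inducible form, went from 1017, 1547 and 1502 to 2931, 3338 and 3035, well clear of the controls (LFC 1.19 ± 0.17, edgeR FDR 6.2e-05). Hsp90ab1, the constitutive form, went from 11878, 10295 and 11491 to 16010, 15262 and 13154 (LFC 0.40 ± 0.13, edgeR FDR 0.016), a rise that was lost without NaCl/PBS mouse 2 (FDR 0.064) and with library size alone (LFC 0.08, FDR 0.61). Per length Hsp90ab1 stayed the more abundant of the pair, at 276 CPM per kb against 44.3 in FeSO4/PBS mice. Hsph1, an HSP110 whose promoter holds a heat shock element, was not called, with 693, 790 and 740 in NaCl/PBS mice and 494, 733 and 666 in FeSO4/PBS mice (LFC -0.23, edgeR FDR 0.35).

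Falls among the J proteins included genes that HSF1 is known to induce in heat. Dnajb1 (HSP40), the main J partner of HSP70 in refolding, had 341, 352 and 287 in NaCl/PBS mice and 299, 161 and 235 in FeSO4/PBS mice. The groups overlapped, and the call (LFC -0.50, edgeR FDR 0.032) was lost without NaCl/PBS mouse 1 or 2 (FDR 0.087 and 0.096) or FeSO4/PBS mouse 2 or 3 (FDR 0.13 and 0.065), with LFCs from -0.28 to -0.73 over the leave-one-out fits. Its close relative Dnajb4 fell with less doubt, from 546, 556 and 584 to 254, 300 and 235 (LFC -1.09, edgeR FDR 4.9e-06). The promoters of Dnajb1 and Dnajb4 held no match to the heat shock element within 250 bases. Dnaja1, a J protein of the cytosol with a heat shock element in its promoter, went from 1911, 2043 and 1963 to 1539, 1549 and 1296 (LFC -0.43, edgeR FDR 0.026), and the call was lost without NaCl/PBS mouse 2 (FDR 0.070), NaCl/PBS mouse 3 (FDR 0.056) or FeSO4/PBS mouse 3 (FDR 0.10).

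The strongest fall of all tested members was that of Dnajc28, a J protein with little known about it, from 273, 273 and 269 to 51.4, 58.0 and 51.0. The mice of each group were nearly alike (LFC -2.34 ± 0.17, edgeR FDR 1.6e-07). Dnajc12, the co-chaperone of phenylalanine hydroxylase, went from 229, 361 and 225 to 119, 88.5 and 115 (LFC -1.34, edgeR FDR 3.1e-04). Dnajb2, a J protein that binds ubiquitin, went from 836, 792 and 902 to 486, 318 and 321 (LFC -1.17, edgeR FDR 2.0e-05). Dnajc27, a small GTPase with a J domain, rose from 15.8, 26.2 and 18.6 to 65.5, 70.2 and 34.4 (LFC 1.505 ± 0.33, edgeR FDR 0.0016). In none of these 4 did the groups overlap.

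All 8 CCT subunits had an LFC above 0, from 0.14 to 0.85. Cct2 led them, with 1698, 1801 and 1732 in NaCl/PBS mice and 3538, 3033 and 2871 in FeSO4/PBS mice, without overlap (LFC 0.85 ± 0.11, edgeR FDR 1.5e-05). Tcp1, the founding subunit, had 1793, 1964 and 1820 against 2402, 1911 and 1831, with overlap, and was the subunit that was not called (LFC 0.14, edgeR FDR 0.32). The other 6 had LFCs from 0.26 to 0.58, and the lowest of them, Cct4, had an edgeR FDR of 0.049 and lost its call in 15 of 19 alternatives without a minimum LFC. With library size alone 6 of the 8 still had an LFC above 0, but 1 was called. The subunits sit in a complex of fixed composition, but their transcripts differed in size of response, and no test of the differences between subunits was run.

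In the ER lumen, 2 of 8 members rose, namely Hspa5 and Dnajb9. Hspa5 (BiP) had 13697, 13193 and 11494 in NaCl/PBS mice and 24197, 26713 and 28353 in FeSO4/PBS mice, with no overlap (LFC 1.05 ± 0.18, edgeR FDR 2.4e-04). Dnajb9 (ERdj4), a J partner of BiP, had 1263, 1167 and 873 against 1985, 2375 and 2126 (LFC 0.97 ± 0.13, edgeR FDR 3.8e-05). Hsp90b1, which carries 2 ER stress elements, had 16381, 15863 and 16307 against 17886, 20183 and 18950. The groups did not overlap, but the difference missed the threshold (LFC 0.23 ± 0.12, edgeR FDR 0.11). Dnajc3, an inhibitor of the kinase PERK with an ER stress element in its promoter, had 5003, 5869 and 5156 against 4172, 5721 and 5470 and the groups overlapped (LFC -0.06, edgeR FDR 0.71, and LFC -0.38 with FDR 0.034 under library size alone). Dnajb11 (ERdj3) had 1554, 1906 and 1566 against 2123, 1896 and 2227 (LFC 0.31, edgeR FDR 0.10). The 3 members of the lumen that fell, named with their values in view, were Hspa13 (LFC -0.62), Dnajc1 (LFC -0.56) and Dnajc10, a reductase of disulfide bonds (LFC -0.49, edgeR FDR 0.012). The call of Dnajc10 was lost without NaCl/PBS mouse 2 (FDR 0.058) or FeSO4/PBS mouse 2 (FDR 0.057). Of the 3 members with an ER stress element, 1 was thus called after iron. Per length Hsp90b1 was above Hspa5 in NaCl/PBS mice (288 against 130 CPM per kb) and the gap was smaller in FeSO4/PBS mice (339 against 269).

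In mitochondria the differences were smaller. The largest was that of Dnajc11, a J protein named with its values in view (LFC 0.73). It had 954, 935 and 828 in NaCl/PBS mice and 1947, 1238 and 1329 in FeSO4/PBS mice, without overlap. Hspa9 had 9715, 9657 and 9727 in NaCl/PBS mice and 13257, 12139 and 12139 in FeSO4/PBS mice, a separate and tight pair of groups (LFC 0.37 ± 0.10, edgeR FDR 0.0051, and LFC 0.05 with library size alone). Hspd1 (HSP60) had 7412, 7138 and 7023 against 9415, 9586 and 8026 (LFC 0.32, edgeR FDR 0.029), a call lost without any 1 of the 3 NaCl/PBS mice, FeSO4/PBS mouse 1 or FeSO4/PBS mouse 2 (FDR 0.052 to 0.092). Hspe1 (HSP10), on the other side of the same promoter, had 875, 939 and 1000 against 1483, 1043 and 855. Its groups overlapped and it was not called (LFC 0.27, edgeR FDR 0.22), although it was without FeSO4/PBS mouse 3 (LFC 0.43, FDR 0.047). Dnaja3 (Tid1), the J partner of Hspa9, had 1699, 1953 and 1651 against 1603, 1235 and 1468 and a marginal fall (LFC -0.30, edgeR FDR 0.043). Leaving out any 1 of 8 mice ended that call, among them NaCl/PBS mouse 2 and FeSO4/PBS mouse 2 (FDR 0.18 each).

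**Figure D3:**
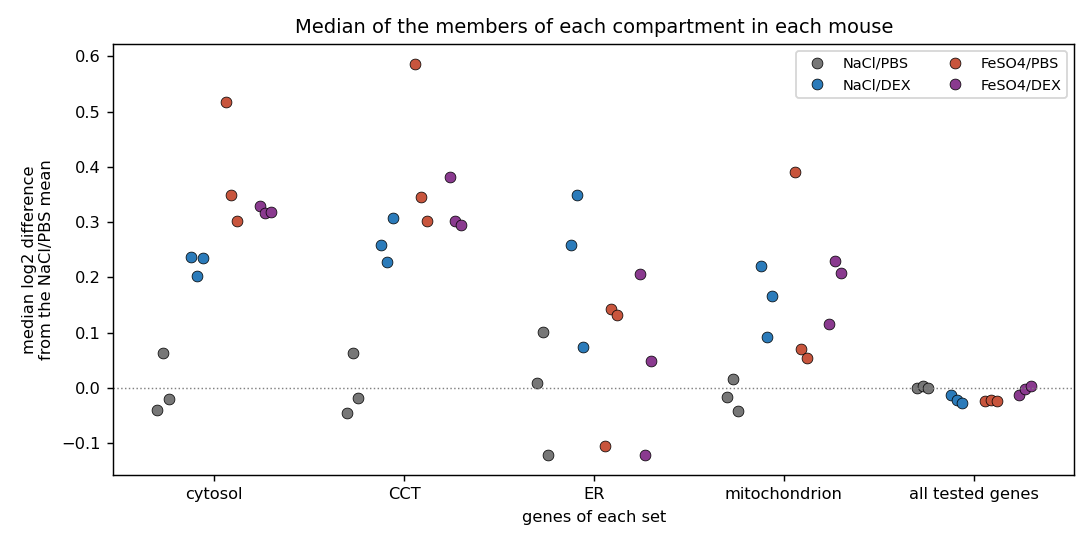
Median over tested members of the log2 difference from the NaCl/PBS mean (vertical axis) in each of the 12 mice, for the cytosol, CCT, the ER lumen, mitochondria and all tested genes. In FeSO4/PBS mice the cytosolic medians are 0.52, 0.35 and 0.30, those of the ER lumen -0.10, 0.14 and 0.13, and those of mitochondria 0.39, 0.07 and 0.05, and mouse 1 is the highest of its group for the cytosol, CCT and mitochondria and the lowest for the ER lumen.

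In mice without iron, 10 members were called higher 2 h after DEX. Of 76 members, 10 (13.2%) were called higher and 1 (1.32%) lower in NaCl/DEX mice than in NaCl/PBS mice, against 6.5% and 7.15% of all genes. The cytosol, with 40 of the tested members, had 8 of the 10 (20% of its members). Mitochondria had 1 of 8 (12.5%) and the ER lumen 0 of 8. With an LFC beyond 1, 3 were higher and 0 lower (all genes, 2.97% and 3.41%). The groups did not overlap for 31 members that were higher (40.8% against 17.6% of all genes) and 3 that were lower (3.95% against 20.3%). The NaCl/PBS mice were the controls here and in the comparison of iron, so that an unusual control mouse enters both. The median LFC was 0.17, with 58 of 76 members above 0, and the median was 0.21 in the cytosol, 0.24 in the ER lumen and 0.16 in mitochondria. With library size alone 6 members were higher and 2 lower, so that 75% instead of 90.9% of the calls were higher, while for all genes 4.46% were higher and 12.8% lower, and 25.8% instead of 47.6% of the calls were higher. The count of 10 moved by mouse, to 5 without NaCl/PBS mouse 1 or 3, 6 without NaCl/DEX mouse 3 and 18 without FeSO4/PBS mouse 1, and it was 19 when the 6 libraries of the contrast were fitted alone and 16 by DESeq2. FeSO4/PBS mouse 1 is not in this contrast, but all 4 groups share 1 estimate of the spread. Its mean correlation with the mice of its own group (r 0.971) was the lowest of the 12 libraries, the next being 0.977. Its part in the count was not tested.

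Hspa2, an HSP70 best known from spermatogenesis, had the strongest DEX response. It had 34.5, 48.6 and 31.3 in NaCl/PBS mice and 346, 233 and 362 in NaCl/DEX mice, far from overlap (LFC 3.04 ± 0.36, edgeR FDR 6.3e-05). Hspa1b went from 62.6, 50.5 and 44.9 to 130, 136 and 260 (LFC 1.73 ± 0.34, edgeR FDR 0.0038). The untested Hspa1a was at 4.29, 3.76 and 22.2 in NaCl/DEX mice, with the same mouse 3 the highest.

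Dnaja1, from 1911, 2043 and 1963, reached 4106, 3255 and 3911 (LFC 0.93 ± 0.15, edgeR FDR 8.5e-04). Dnaja3 was at 2894, 2757 and 2438 (LFC 0.61 ± 0.12, edgeR FDR 0.0030), and Dnajc25, another J protein, went from 472, 583 and 427 to 789, 696 and 697 (LFC 0.56 ± 0.12, edgeR FDR 0.0062). In these 3 no treated mouse fell within the range of the controls. Dnajc28 was the member that fell, to 160, 137 and 112 (LFC -0.996 ± 0.16, edgeR FDR 7.6e-04), in the same direction as after iron.

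The other 5 calls had an FDR of 0.021 to 0.041 and were each lost when any 1 of several mice was left out. Bag2 reached 77.3, 118 and 98.7 (LFC 1.32 ± 0.35, edgeR FDR 0.023) and its call was lost without NaCl/PBS mouse 1 or 3 or NaCl/DEX mouse 2 or 3 (FDR 0.10, 0.054, 0.087 and 0.062). Hspa8 reached 14552, 10554 and 13367 (LFC 0.57 ± 0.17, edgeR FDR 0.041), Hsph1 1385, 967 and 1227 (LFC 0.69, FDR 0.035), Bag5 383, 348 and 297 (LFC 0.42, FDR 0.037) and Cct2 2169, 2329 and 2386 (LFC 0.40, FDR 0.021). All of these values lay above the controls. The call of Hspa8 was lost without any 1 NaCl/PBS mouse, NaCl/DEX mouse 1 or 3 or FeSO4/DEX mouse 1 (FDR 0.051 to 0.15), that of Hsph1 without any 1 NaCl/PBS mouse or NaCl/DEX mouse 1 or 3 (FDR 0.059 to 0.13), and that of Cct2 without NaCl/PBS mouse 1 or 3 or NaCl/DEX mouse 2 or 3 (FDR 0.065 to 0.084). For Bag5 the same held for any 1 NaCl/PBS mouse and for NaCl/DEX mouse 1 or 2 (FDR 0.050 to 0.16). Hspa5 was at 19482, 18915 and 14778, above all controls, but was not called (LFC 0.47, edgeR FDR 0.10).

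In mice that had received iron 6 h earlier, no member was called after DEX by edgeR or by DESeq2. At an unadjusted p under 0.05, edgeR listed 1 of 76 members, Hspa12a (LFC 0.87, unadjusted p 0.014), and 900 of 13857 genes, and 0 genes passed the FDR. Hspa2 had 143, 61.0 and 53.6 in FeSO4/PBS mice and 156, 84.3 and 112 in FeSO4/DEX mice, with overlap (LFC 0.45). Hspa1b had 16.1, 3.05 and 12.8 against 10.6, 8.16 and 7.13 (LFC -0.27), and Dnaja1 had 1539, 1549 and 1296 against 2177, 1377 and 1867 (LFC 0.31). The 11 members called after DEX in NaCl mice had LFCs from -0.35 (Bag2) to 0.45 (Hspa2) here, with an edgeR FDR of 0.76 or more. The groups did not overlap for 2 members that were higher and 6 that were lower (2.63% and 7.89%), against 4.45% and 4.85% of all genes.

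Whether the 2 DEX responses differ was tested by the interaction term of the same fit, in which 4 members (5.26%) were called lower and 0 higher, against 3.2% and 2.99% of all genes. With a difference beyond 1, 1 was lower and 0 higher (all genes, 2% and 2.14%). At an unadjusted p under 0.05 there were 21 members. Hspa2 had the strongest difference (LFC of the difference -2.60 ± 0.49, edgeR FDR 0.0067) and kept its call in the 18 alternatives without a minimum LFC, but not in a test against an LFC of 1, which left 0 members. Dnajc25 (-0.74 ± 0.17, edgeR FDR 0.017) lost it without NaCl/PBS mouse 1 (FDR 0.052) or NaCl/DEX mouse 1 (FDR 0.051). Dnaja3 (-0.68 ± 0.17, edgeR FDR 0.027) lost it without NaCl/PBS mouse 1 or 3, NaCl/DEX mouse 1 or 2 or FeSO4/DEX mouse 1 (FDR 0.051 to 0.078), and its gene span overlaps that of Vasn on the same strand. Bag5 (-0.66 ± 0.17, edgeR FDR 0.040) lost it in 10 alternatives, among them those without NaCl/PBS mouse 1 or 3, NaCl/DEX mouse 1 or 2, FeSO4/PBS mouse 3 or any 1 FeSO4/DEX mouse (FDR 0.061 to 0.11). For Hspa1b the difference was -1.99 (edgeR FDR 0.093), for Bag3 -0.77 (FDR 0.097), for Hspa8 -0.81 (FDR 0.068) and for Bag2 -1.67 (FDR 0.057). Of these 4, Dnajc25 and Bag5 stood higher in FeSO4/PBS mice than in NaCl/DEX mice. The values were 984, 898 and 894 against 789, 696 and 697 for Dnajc25, and 668, 568 and 661 against 383, 348 and 297 for Bag5. Hspa2 and Dnaja3 stood lower. Their values were 143, 61.0 and 53.6 against 346, 233 and 362 for Hspa2, and 1603, 1235 and 1468 against 2894, 2757 and 2438 for Dnaja3. The part of these levels in the differences was not tested.

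**Figure D4:**
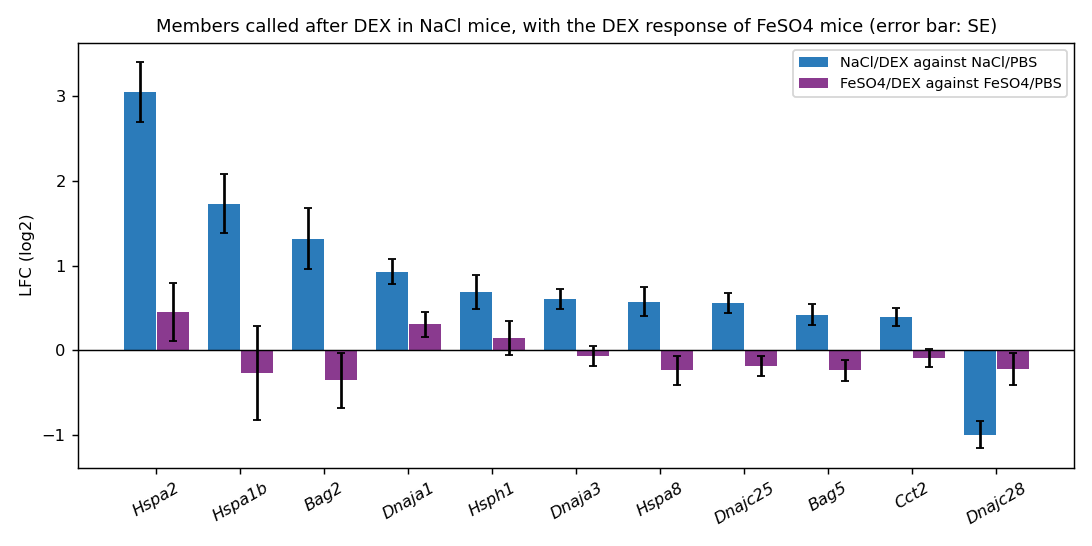
LFC after DEX (vertical axis, log2 scale, bars from 0 with whiskers for the SE) of the 11 members called in NaCl mice, beside their LFC after DEX in FeSO4 mice. In NaCl mice the values run from -0.996 (Dnajc28) to 3.04 (Hspa2), and in FeSO4 mice from -0.35 to 0.45.

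Iron was also compared within the mice that received DEX, which are other animals than those of the first comparison. Here 17 members (22.4%) were higher and 21 (27.6%) lower in FeSO4/DEX than in NaCl/DEX mice, against 22.4% and 20.9% of all genes, and the groups did not overlap for 31 higher (40.8% against 28.8%) and 23 lower (30.3% against 27.1%). With an LFC beyond 1, 6 were higher and 10 lower (all genes, 10.6% and 9.83%). With library size alone 9 were higher and 27 lower (all genes, 15.5% and 29.9%), so that 25% instead of 44.7% of the members' calls were higher, and 34.2% instead of 51.7% of those of all genes. All 17 were among the 37 called higher in PBS mice (45.9% of that list), while 65.1% of all genes called higher in PBS mice were called higher here. Of the 21 called lower in PBS mice, 17 (81%) were called lower here, against 59.8% of all genes called lower. Hspb8 had 3446, 2966 and 3241 in NaCl/DEX mice and 15733, 17925 and 17985 in FeSO4/DEX mice, with the same LFC as without DEX (2.42, edgeR FDR 1.8e-08). Bag3 went from 408, 521 and 498 to 1981, 1718 and 1654 (LFC 1.91, edgeR FDR 2.6e-06), and Hspbap1, Hspa14, Bag5, Hspb1, Hsp90aa1, Dnajb9 and Hspa5 were called higher in both arms as well. The calls of Hspb1 and Hspa5 in DEX mice could be lost by leaving out 1 mouse: without FeSO4/DEX mouse 1 the LFC of Hspa5 was 0.31 (FDR 0.16, main LFC 0.53), and without NaCl/DEX mouse 1 that of Hspb1 was 1.00 (FDR 0.10, main LFC 1.23).

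The controls of this comparison are the NaCl/DEX mice, in which DEX had already acted. Hspa1b went from 130, 136 and 260 to 10.6, 8.16 and 7.13 (LFC -4.30 ± 0.44, edgeR FDR 4.0e-06), and Dnajb1 from 455, 441 and 426 to 208, 185 and 170 (LFC -1.23 ± 0.18, edgeR FDR 1.2e-04). In both, the groups were widely separate, although Hspa1b passed the filter on low counts only through NaCl mice. Hsph1 went from 1385, 967 and 1227 to 889, 484 and 716 (LFC -0.77, edgeR FDR 0.0068), and Dnaja3 reached 1390, 1331 and 1389 (LFC -0.98, edgeR FDR 1.8e-05). Hspa2 was the member called in opposite directions, higher after iron in PBS mice (LFC 1.19 ± 0.37, edgeR FDR 0.013) and lower in DEX mice (LFC -1.41, edgeR FDR 0.0032). The former call was lost without NaCl/PBS mouse 3 (FDR 0.052), without FeSO4/PBS mouse 1 (LFC 0.60, FDR 0.12) and with library size alone (FDR 0.054). Hspa1l, with 19 reads in all and not tested, had 5, 4 and 6 reads in FeSO4/DEX mice and 0 in each NaCl/PBS mouse. Without the FeSO4/DEX mice Hspa1l would have missed the limit on summed reads. The same reads thus made it a member, so its difference between groups is no independent support.

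**Figure D5:**
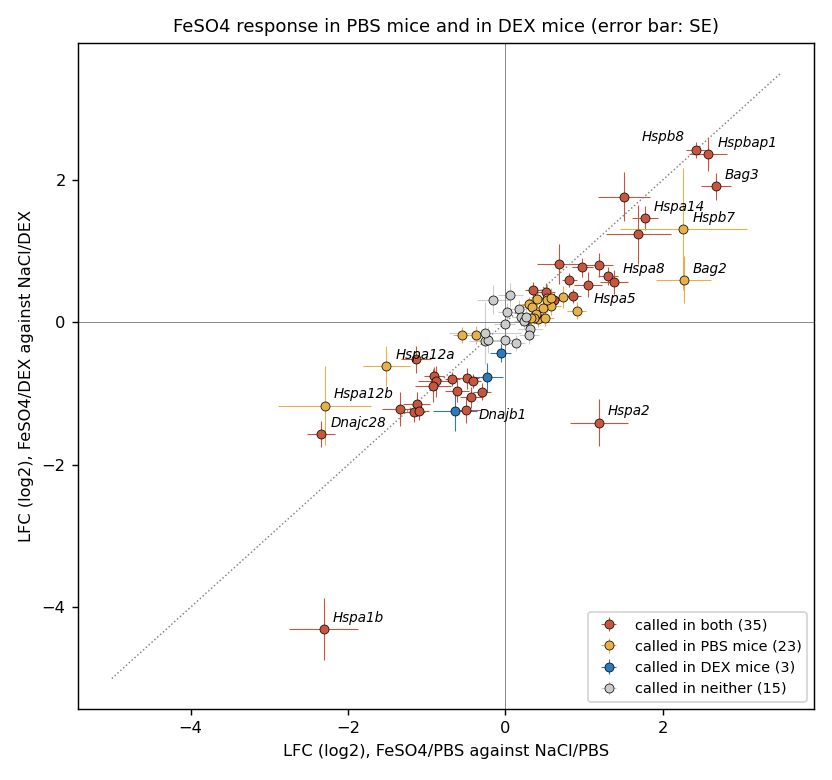
LFC of iron in PBS mice (horizontal axis) against that in DEX mice (vertical axis) for the 76 tested members (log2 scales, bars are SE), which are separate sets of animals. Of them, 35 were called in both arms, 23 in PBS mice alone, 3 in DEX mice alone and 15 in neither. Hspa2 lies to the right of 0 in PBS mice and below 0 in DEX mice.

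Genes that work with the members were followed on lists of textbook partners. Among 4 heat shock factor genes, Hsf1 had 239, 226 and 218 in NaCl/PBS mice and 246, 246 and 210 in FeSO4/PBS mice, with overlap (LFC 0.04, edgeR FDR 0.81). Hsf2 fell from 529, 420 and 429 to 143, 137 and 156 (LFC -1.66, edgeR FDR 1.9e-06) and was the factor called after iron. Of 17 HSP90 and HSP70 partners of the cytosol, 6 (35.3%) were higher and 4 (23.5%) lower after iron (median LFC 0.10), near the 27.2% and 27.3% of all genes tested. The rises were led by Unc45a, a myosin co-chaperone that works with HSP90, from 145, 185 and 208 to 475, 667 and 636 (LFC 1.73, edgeR FDR 3.2e-06), and by Tomm34 (LFC 1.10). Chordc1, an HSP90 partner, fell (LFC -0.90) and Ppid, a cyclophilin that binds HSP90, rose (LFC 0.60). Other heat-inducible genes counted 3 higher of 4, among them the ubiquitin gene Ubb (LFC 0.78).

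Of 12 ER partners, 1 (8.33%) was higher (Sil1, the nucleotide exchange factor of Hspa5, LFC 0.34) and 1 (8.33%) lower (Pdia4, a disulfide isomerase, LFC -0.56), with a median LFC of 0.10. Of 12 mitochondrial partners, 5 (41.7%) were higher and 1 (8.33%) lower (median LFC 0.28), against 27.2% and 27.3% of all genes tested. Clpx, the unfoldase of the mitochondrial protease ClpXP, went from 1651, 1600 and 1559 in NaCl/PBS mice to 5829, 6248 and 7757 in FeSO4/PBS mice (LFC 2.04, edgeR FDR 4.7e-08). Grpel1, the nucleotide exchange factor of Hspa9, went from 1750, 1999 and 1666 to 4084, 3331 and 3505 (LFC 1.01, edgeR FDR 3.7e-06). Both moved further than Hspa9, Hspd1 or Hspe1 did, in groups that did not overlap, although the differences between genes were not tested. Hscb, a J protein of iron-sulfur cluster transfer that the symbol rule does not take in, went from 53.9, 41.1 and 58.4 to 25.2, 14.2 and 21.7 (LFC -1.33, edgeR FDR 0.0021). Of 8 prefoldin and CCT partners, 3 (37.5%) were higher and 1 (12.5%) lower, with LFCs of 0.90 for Pfdn4 and -0.83 for Pdcl. After DEX in NaCl mice the partner Fkbp5, an immunophilin of the glucocorticoid receptor complex, went from 1341, 3654 and 1481 to 9724, 10944 and 9941 (LFC 2.24, edgeR FDR 1.4e-04), and this gene was chosen with its values in view.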

How the data were processed

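The labels and methods of the study state that livers were sequenced as stranded poly-A libraries with single-end reads, which the authors checked with FastQC, mapped to mm39 with STAR 2.7.10b and counted per gene. They deposited raw counts for 55414 genes, with no normalization. Symbols came from GENCODE vM39, a later release than that of the authors, for 54749 rows, and 665 rows had none. Reads that fit several genes are left out of such counts, so that Hspa1a, Hspa1b and members with pseudogene copies may be understated. The gene spans of Tcp1, Hsp90aa1, Hsp90b1, Dnajc3 and Hspa12a also overlap another annotated gene on the same strand, and overlap of exons was not examined.

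From these counts the following was computed with R 4.3.3, edgeR 4.0.16, limma 3.58.1, DESeq2 1.42.0, Python 3.11.15, numpy 2.4.6, pandas 2.3.3 and matplotlib 3.10.9. A single quasi-likelihood fit of edgeR took in the 12 libraries, with 1 coefficient for each of 4 groups, after edgeR's filter on low counts (13857 genes) and TMM scaling, and p-values were adjusted by Benjamini-Hochberg over all genes tested. The biological coefficient of variation was 0.169. A call was an FDR of 0.05 or less, without a minimum LFC. Levels between genes were compared only as CPM per kilobase of the canonical transcript. With 16335651 to 23827340 reads in genes per library, the 3 mice per group limit the precision more than the depth does, except for members with few reads. The fit was tested on simulated data.

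The members, the lists of locations, families, partners and markers, and the genes to name were chosen with earlier results of these data known, so that none of them is independent support. Named were 20 well-known members, the 10 largest rises and 6 largest falls among members called after iron, up to 8 called members by smallest p in each other contrast, the members nearest to the limit on reads, Hsf1, and up to 4 called genes per partner list. Alternatives were DESeq2 size factors, library size alone, the DESeq2 Wald test, other filters, a replicate block, the libraries of each contrast alone, an LFC beyond 1, testing for changes larger than that, and leaving out each mouse. Single values of a few listed genes are not reported here.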

Additional observations from a re-analysis of the deposited data

Results flagged for a closer look

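The response of 4 members to DEX differed between NaCl and FeSO4 mice by the edgeR interaction test. The difference (LFC in FeSO4 mice minus LFC in NaCl mice) was -2.60 for Hspa2, -0.74 for Dnajc25, -0.68 for Dnaja3 and -0.66 for Bag5. The first of these held in the 18 alternatives without a minimum LFC but not in a test against an LFC of 1, and Bag5 lost its call in 10 of the 18.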

How the results depend on the processing

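Counts of called members were recomputed under each alternative. Leaving out 1 mouse at a time gave 29 to 37 members higher and 16 to 21 lower after iron in PBS mice (main 37 and 21), 5 to 18 higher and 1 lower after DEX in NaCl mice (10 and 1), 13 to 20 higher and 20 to 23 lower after iron in DEX mice (17 and 21), 1 to 7 lower in the interaction (4), 21 to 25 higher and 7 to 9 lower in the cytosol after iron (25 and 9), 2 higher and 2 to 3 lower in the ER lumen (2 and 3), and 2 to 4 higher and 0 to 1 lower in mitochondria (3 and 1). In FeSO4 mice 0 members were called after DEX under each alternative, DESeq2 included. With an LFC beyond 1 the same counts were 13 and 9, 3 and 0, 6 and 10, 1, 10 in the cytosol, 1 and 0 in the ER lumen, and 0 and 0 in mitochondria. With library size alone 17 members were higher and 30 lower after iron in PBS mice, and 6 higher and 2 lower after DEX in NaCl mice. It gave 9 higher and 27 lower after iron in DEX mice, and 2 lower in the interaction. By location it gave 10 higher and 12 lower in the cytosol, and 1 higher and 3 lower in mitochondria. The median LFC was then 0.09 in the cytosol, -0.23 in the ER lumen and -0.089 in mitochondria. A test against an LFC of 1 left 7 and 2, 1 and 0, 4 and 2, 0 in the interaction, 6 and 1 in the cytosol, and 0 in the ER lumen and in mitochondria. The DESeq2 Wald test called 16 members higher after DEX in NaCl mice and 13 lower in the interaction, the fit without a filter called 10 lower in the interaction, and the libraries of the contrast alone gave 19 higher after DEX in NaCl mice. The mitochondrial fall (Dnaja3) was at 0 with DESeq2 size factors, DESeq2, no filter, the replicate block and the contrast alone. The causes were not tested.

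Of the 37 rises and 21 falls after iron in PBS mice, 17 and 16 kept their call in the 19 alternatives that set no minimum LFC, and so did 5 of the 10 rises after DEX. Same-numbered mice deviated together weakly at most (r above 0.1 in 2 of 18 pairs, from -0.092 to 0.129). Both of these pairs were of NaCl/PBS with NaCl/DEX mice (r 0.129 and 0.109), the groups compared for DEX. With 3 mice per group these values cannot tell whether the numbers pair the mice, and the main fit used no pairing. With the replicate block no count of calls moved by over 1.5 times except that of the mitochondrial fall, and Hsph1 after DEX had an FDR of 0.054. Depth limits Hspa1a, Hspa1l, Hspb7, Hspa12b and other members with few reads.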

Other observations

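Markers of other liver cells not described above also moved after iron in PBS mice. Of 5 cholangiocyte markers 2 were higher, with sums of 533 to 683 normalized counts in NaCl/PBS mice and 1069 to 1376 in FeSO4/PBS mice. Of 5 stellate cell markers 2 were higher and 1 lower, and of 3 tested lymphocyte markers, of 6 listed, 1 was lower. Hepatocyte markers counted 3 higher and 0 lower of 8. Among all genes tested, 27.2% were called higher and 27.3% lower.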
